A study of Caenorhabditis elegans with 6 samples.

Results

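T16G1.4, T16G1.5, T16G1.6, T16G1.7, C29F7.1, C29F7.2 and F49C12.7 are protein-coding genes of the nematode Caenorhabditis elegans from 3 places in its genome. These 7 genes were taken by their sequence names out of the 18889 genes on the array, and 8 of its 22490 gene probes belong to them, since T16G1.7 has 2. A sequence name of this kind gives the cloned piece of genome in which a gene was found and a number for the gene within it, so that genes with the same first part lie close together. The genes were chosen by their log2 ratios of LDM over control on these same arrays, together with their neighbours, so their LDM ratios are given as a description, without a test.

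Worms of the wild-type strain N2 were raised from synchronized eggs at 16 °C on agar with bacteria as food, and were collected at 72 h as L3/L4 larvae. The treated group grew on a low dose mixture (LDM) of the organophosphates chlorpyrifos (CPF) and diazinon (DZN), and the control group on acetone, the solvent of both. The labels give 0.5 mg/ml CPF and 1 mg/ml DZN, while the methods give the same numbers per litre. The methods pooled the whole worms of 4 dishes into each sample. RNA of LDM worms and RNA of control worms were hybridized together on 6 arrays, with LDM worms in the red dye Cy5 on 3 arrays and in the green dye Cy3 on the other 3. The arrays are named here by the dye of the LDM sample and their replicate number. Control extracts of LDM in Cy5 replicate 3 and LDM in Cy3 replicate 1 share a sample number in the scanner output, which does not say if the RNA was the same.

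Organophosphates block acetylcholinesterase, the enzyme that clears the transmitter acetylcholine from synapses. Worms also meet foreign compounds with a transcriptional response in which cytochrome P450 enzymes oxidize the compound and other enzymes conjugate it, much of it in the intestine. Worm genes that arose by duplication often remain next to each other on the chromosome, and such neighbours can be regulated together or apart. The files and the gene table give the 7 genes no names beyond their sequence names and no function, so no role is given to them here.

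The gene table placed T16G1.4 to T16G1.7 on chromosome V as direct neighbours, in the order T16G1.7, T16G1.6, T16G1.5 and T16G1.4. C29F7.1 and C29F7.2 are neighbours on chromosome X, and F49C12.7 is on chromosome IV. T16G1.7 overlaps its other neighbour T16G1.2 there, and F49C12.7 overlaps F49C12.6. The array probes are 60-mers, and their letters were not used here, so it was not checked how far a probe also reads a related or overlapping gene.

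The LDM ratios of these genes differed in size and sign. T16G1.6, C29F7.2 and F49C12.7 were more than 2-fold higher in LDM worms on average, with every array above control. T16G1.7 and C29F7.1 had positive means below 2-fold, and 1 or more arrays below control on the probe used. The other probe of T16G1.7 was above control on every array, with a fold of 1.48, so that its sign on single arrays depends on the probe. T16G1.4 and T16G1.5 had means near or below 0. Each place in the genome held 1 gene that was more than 2-fold higher, which the choice of genes on these ratios in part sets. Since whole worms were measured, more RNA per cell and more cells that express a gene cannot be told apart.

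**Figure D1:**
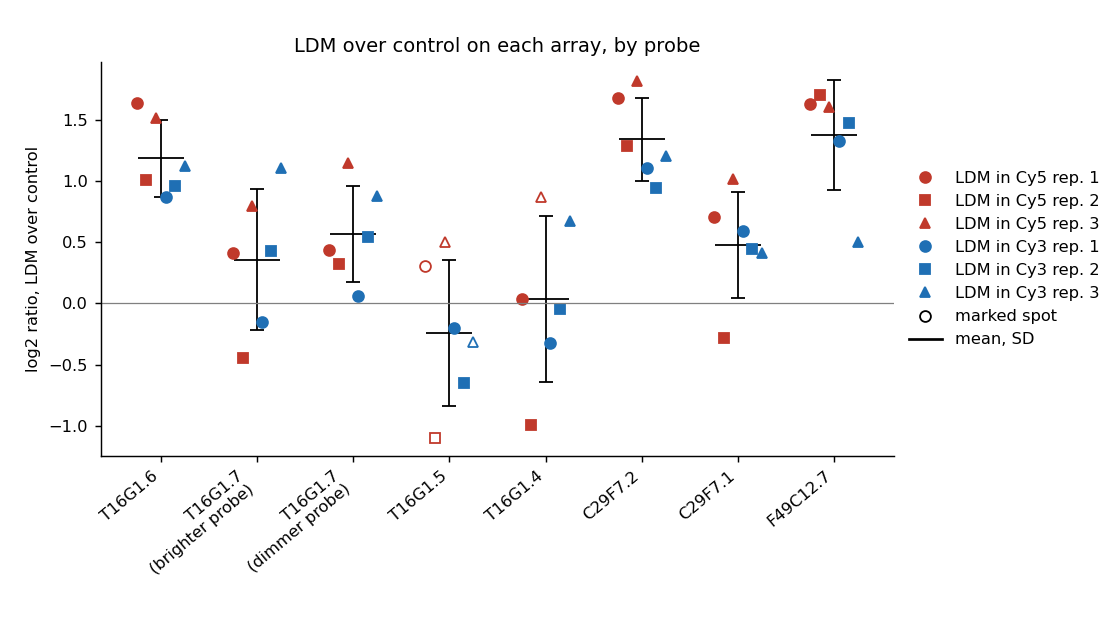
Log2 ratio of LDM over control for each probe of the 7 genes on each of 6 arrays, where 0 means equal levels; red and blue points are arrays with the LDM sample in Cy5 and Cy3, open points are spots that the image software marked, and black lines give the mean and SD over the arrays. T16G1.6, C29F7.2, F49C12.7 and the dimmer probe of T16G1.7 are above 0 on every array, and the lowest point of F49C12.7 is 0.50 on LDM in Cy3 replicate 3.

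F49C12.7 had log2 ratios of 1.63, 1.7 and 1.61 on the arrays with LDM in Cy5 (replicates 1, 2 and 3) and 1.33, 1.48 and 0.50 on those with LDM in Cy3. The first 5 values lie close together and the last lies far below them. The mean was 1.37 ± 0.45 (SD, n = 6), a fold of 2.59, and without LDM in Cy3 replicate 3 the fitted ratio was 1.53. On that array the control level of F49C12.7 was its highest of all arrays, with a normalized log2 intensity of 13.02 against 11.19 to 12.33 on the others, while its LDM level of 13.51 lay within the range of the other arrays, 12.52 to 14.03. Its LDM and control levels therefore overlapped across arrays.

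The same array stood apart in stage markers. The median log2 ratio of 5 vitellogenin genes, which code for yolk proteins made in the adult intestine, was 2.44 on LDM in Cy3 replicate 3 and between -2.93 and -0.72 on the others. For 12 genes of major sperm proteins, which appear as sperm form, that array had a median of 0.79, and the others had -1.14 to 0.04. Over all arrays the vitellogenin median was -1.09. Of the vitellogenins tested, 0 passed limma, 1 had an unadjusted p under 0.05 (9.33% of all genes had one), and the rank product called 4, all lower (0.476% of all genes were called lower). The part of developmental stage in the ratio of F49C12.7 was not tested.

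C29F7.2 had log2 ratios of 1.68, 1.29 and 1.82 with LDM in Cy5 and 1.11, 0.94 and 1.21 with LDM in Cy3. Every array was above control, and the values with LDM in Cy5 were all above those with LDM in Cy3. The mean was 1.34 ± 0.34 (SD, n = 6), a fold of 2.53. Its control levels ran from 12.09 to 13.35 and its LDM levels from 13.78 to 14.56 in normalized log2 intensity, so that the lowest LDM worms were above the highest control worms. C29F7.2 was 1 of the 11 genes with such a separation among 6491 measured on every array (0.169%), and among the 5 members measured on every array it was the only one. The members were chosen on the same LDM and control values, so nothing is read from this share.

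T16G1.6 had log2 ratios of 1.63, 1.01 and 1.51 with LDM in Cy5 and 0.87, 0.96 and 1.13 with LDM in Cy3. Again every array was above control, and the SD between arrays was less than the distance of any array from 0. The mean was 1.18 ± 0.32 (SD, n = 6), a fold of 2.27. Control levels of 10.31 to 11.72 and LDM levels of 11.32 to 13.23 overlapped across arrays, although on each array the LDM level was the higher one, as the plot of paired levels shows.

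**Figure D2:**
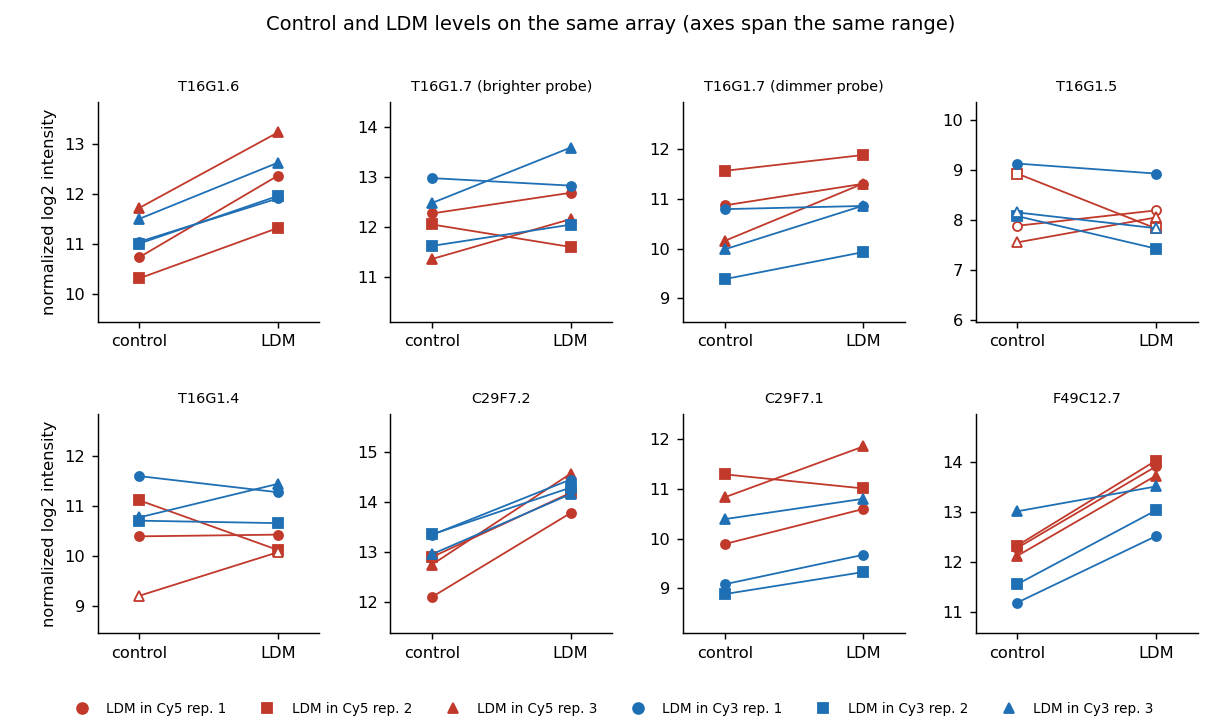
Normalized log2 intensity in control and LDM worms for each probe, with a line joining both samples of 1 array; red and blue are arrays with the LDM sample in Cy5 and Cy3, open points are marked spots, and the axes of all panels span the same range. All lines rise for T16G1.6, C29F7.2, F49C12.7 and the dimmer probe of T16G1.7, and the LDM points of C29F7.2 lie above its control points.

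T16G1.7 is measured by 2 probes, and neither had a ratio as high as that of T16G1.6. The brighter one gave log2 ratios of 0.41, -0.45 and 0.80 with LDM in Cy5 and -0.15, 0.43 and 1.11 with LDM in Cy3, with a mean of 0.36 ± 0.58 (SD, n = 6) that fell to 0.20 when LDM in Cy3 replicate 3 was left out and to 0.22 when LDM in Cy5 replicate 3 was. The other gave 0.43, 0.32 and 1.15 and then 0.06, 0.54 and 0.88, with a mean of 0.56 ± 0.39 (SD, n = 6). The probes disagree on LDM in Cy5 replicate 2 and LDM in Cy3 replicate 1, where the first is below control and the second above it. Both were highest on LDM in Cy5 replicate 3 and LDM in Cy3 replicate 3.

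C29F7.1 had log2 ratios of 0.70, -0.28 and 1.02 with LDM in Cy5 and 0.59, 0.44 and 0.41 with LDM in Cy3. Of 6 arrays, 5 were above control, and LDM in Cy5 replicate 2 was below it. The mean was 0.48 ± 0.43 (SD, n = 6), a fold of 1.39, and without that array the fitted ratio was 0.67. Control levels of 8.89 to 11.29 and LDM levels of 9.33 to 11.84 overlapped.

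T16G1.4 had log2 ratios of 0.03 and -1.0 on the unmarked LDM in Cy5 arrays, replicates 1 and 2, followed by -0.32, -0.05 and 0.67 on LDM in Cy3 replicates 1 to 3. On LDM in Cy5 replicate 3 the image software marked its spot, whose ratio was 0.87. The mean over all arrays was 0.04 ± 0.68 (SD, n = 6), so that the spread between arrays was far wider than the distance from 0. Fitted on the 5 unmarked arrays the ratio was -0.19, and it was -0.33 with LDM in Cy3 replicate 3 left out and -0.08 with LDM in Cy3 replicate 1 left out. With replicate 1 or 2 of LDM in Cy5 left out it could not be fitted, and the mean over all its spots was then 0.04 or 0.24.

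The spot of T16G1.5 was dim, most of all with LDM in Cy5, where it lay 44 to 181 above its local background. With LDM in Cy3 it lay 169 to 1544 above it. It was unmarked on 2 of 6 arrays, with log2 ratios of -0.20 and -0.65 on LDM in Cy3 replicates 1 and 2. The marked spots gave 0.31, -1.10 and 0.50 with LDM in Cy5 and -0.32 on LDM in Cy3 replicate 3. LDM and control channels were each above background, by more than 2 SD of it, on 5 of 6 arrays. The raw intensity was 193 to 1706 in control worms, where the median background over the gene spots of an array was 154 to 161. The mean was -0.24 ± 0.59 (SD, n = 6), which is within the spread between arrays of 0, and too few spots were unmarked for a fit. This mean moved to -0.07 when LDM in Cy5 replicate 2 was left out, -0.16 for LDM in Cy3 replicate 2 and -0.39 for LDM in Cy5 replicate 3.

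Among all genes, 0.313% passed limma as higher with the LDM (25 of 7989 tested, Benjamini-Hochberg adjusted p under 0.05). Of the 6 members that could be fitted, T16G1.6, C29F7.2 and F49C12.7 passed as higher and 0 as lower (0.0626% of all genes were lower), a count that the choice of members on the same contrast sets and from which nothing is read. By the rank product of the methods, at a percentage of false positives under 0.05, 1.26% of genes were higher, among them the same 3 members. On every array above control were 2.43% of the 6491 genes measured on all arrays (158 genes), again including these 3. The median ratio of all genes was -0.03, with 5% of genes below -0.41 and 5% above 0.39, and the 6 fitted members had a median of 0.83.

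Within each array, the ratio of C29F7.2 lay between the 96.9 and 99.6 percentile of the genes measured on it, T16G1.6 between 93.6 and 99.4, and F49C12.7 between 89.1 and 99.7. The low end of C29F7.2 and T16G1.6 came from LDM in Cy5 replicate 3, on which ratios were widely spread and which gave both genes high ratios. The low end of F49C12.7 came from LDM in Cy3 replicate 3. C29F7.1 ran from 34.0 to 98.1, with its low end on LDM in Cy5 replicate 2 and 85.3 or more on every other array. T16G1.7, by its brighter probe, ran from 25.2 on LDM in Cy3 replicate 1 to 98.2, and was also low, at 26.7, on LDM in Cy5 replicate 2. T16G1.4 ran from 10.6 to 94.1 over its unmarked arrays.

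The dye carried by the LDM sample was not used to choose the genes. The higher ratios of T16G1.6, C29F7.2 and F49C12.7 with LDM in Cy5 corresponded to dye effects of 0.20, 0.26 and 0.27 on the log2 scale, each added with LDM in Cy5 and taken away with LDM in Cy3. Of the 6 members fitted, 0 had a dye effect past limma's test (0 at an unadjusted p under 0.05, the lowest being 0.0797), where 0.025% of all genes had one (2 genes, and 489 at an unadjusted p under 0.05). With 3 arrays in each orientation, an effect of this size was not distinguished from the spread between arrays. The arrays with LDM in Cy5 also had fewer unmarked gene spots, so that dye and set of arrays cannot be told apart. In T16G1.4, T16G1.7 and C29F7.1 the dye effect was -0.29, -0.10 and 0.00.

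Genes that lie side by side were then set against each other on the same array, which removes what both share with that array. T16G1.6 exceeded T16G1.7, read by its brighter probe, on 6 of 6 arrays. The differences of log2 ratio were 1.22, 1.46 and 0.71 with LDM in Cy5 and 1.02, 0.53 and 0.02 with LDM in Cy3. The mean difference was 0.83 ± 0.52 (SD, n = 6), and on LDM in Cy3 replicate 3 both genes had nearly the same ratio. The other probe of T16G1.7 had a higher mean ratio, 0.56 against 0.36, so that differences from it are smaller on average. Against T16G1.4 the differences were 1.6 and 2.01 for replicates 1 and 2 of LDM in Cy5, then 1.19, 1.00 and 0.45 on LDM in Cy3 replicates 1 to 3, with 0.64 where the spot of T16G1.4 was marked. Against T16G1.5, mostly from marked spots, they ranged from 1.01 to 2.11. T16G1.6 therefore stood above each of the T16G1 members on every array, although they lie next to it or close by.

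C29F7.2 exceeded C29F7.1 on 6 of 6 arrays, by 0.98, 1.57 and 0.80 with LDM in Cy5 and by 0.52, 0.50 and 0.80 with LDM in Cy3. The mean difference was 0.86 ± 0.39 (SD, n = 6). Its neighbour on the other side, C29F7.3, had a mean ratio of -0.19 ± 0.45 (SD, n = 6), and C29F7.2 exceeded it by 0.80 to 2.34. F49C12.7 exceeded F49C12.9, the next gene in the table, on 6 of 6 arrays by 0.31 to 2.34, and the smallest difference was again that of LDM in Cy3 replicate 3. The spot of F49C12.6, which overlaps F49C12.7 in the table, was marked on every array and had raw intensities of 158 to 174 in LDM worms, at the level of the background. T16G1.6 stayed above T16G1.7, and C29F7.2 above C29F7.1, under each of the 20 settings tried, the one reported included. The differences were at least 0.70 and 0.75. T16G1.6 also stayed above T16G1.4 and T16G1.5 under the 18 and 14 of these settings that give those genes a value. All settings reuse the same 6 arrays, on which the genes were chosen with their neighbours. The order is therefore a description and no further evidence.

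**Figure D3:**
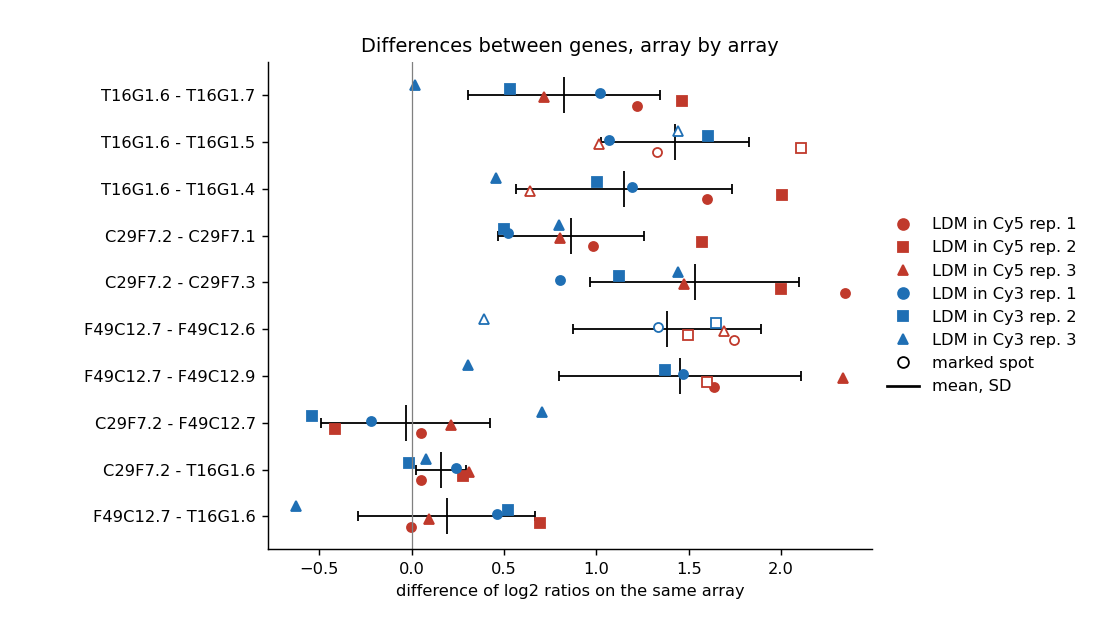
Difference between the log2 ratios of a pair of genes on the same array, first gene minus second, for neighbours and for the 3 genes with the highest ratios; red and blue are arrays with the LDM sample in Cy5 and Cy3, open points have at least 1 marked spot, and black lines give the mean and SD over 6 arrays. Every point of the first 7 pairs is above 0, and the last 3 pairs scatter around or near 0.

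Among the 3 genes with the highest ratios the order was not the same on all arrays. C29F7.2 and F49C12.7 differed by -0.03 ± 0.46 (SD, n = 6), with 3 arrays on either side of 0. F49C12.7 and T16G1.6 differed by 0.19 ± 0.48 (SD, n = 6). C29F7.2 and T16G1.6 kept closest to each other, with a difference of 0.16 ± 0.14 (SD, n = 6) and C29F7.2 above on 5 of 6 arrays.

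The surroundings of the 7 genes were taken as the 3 nearest genes on either side and all other genes of the same clones, 34 genes in all, of which 28 are on the array and 14 could be tested. Of these, 0 passed limma in either direction, 1 had an unadjusted p under 0.05, and the rank product called 0, counts near the shares of all genes (0.313% higher and 0.0626% lower by limma, 9.33% at an unadjusted p under 0.05). Their median log2 ratio was -0.13 and they ranged from -0.50 in T16G1.9 to 0.27 in pqn-68. T16G1.2, which overlaps T16G1.7 in the table, had -0.35 ± 0.53 (SD, n = 6), and eif-3.K, a subunit of a translation initiation factor, had -0.23 ± 0.32 (SD, n = 6). On the F49C12 clone, rpn-7, a proteasome subunit, had -0.10 ± 0.28 and vha-17, a subunit of the vacuolar proton pump, had -0.08 ± 0.25 (SD, n = 6 each), though up to 50.7% of the pixels of vha-17 were at the ceiling of the scanner. None of the 8 probes of the members had saturated pixels.

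**Figure D4:**
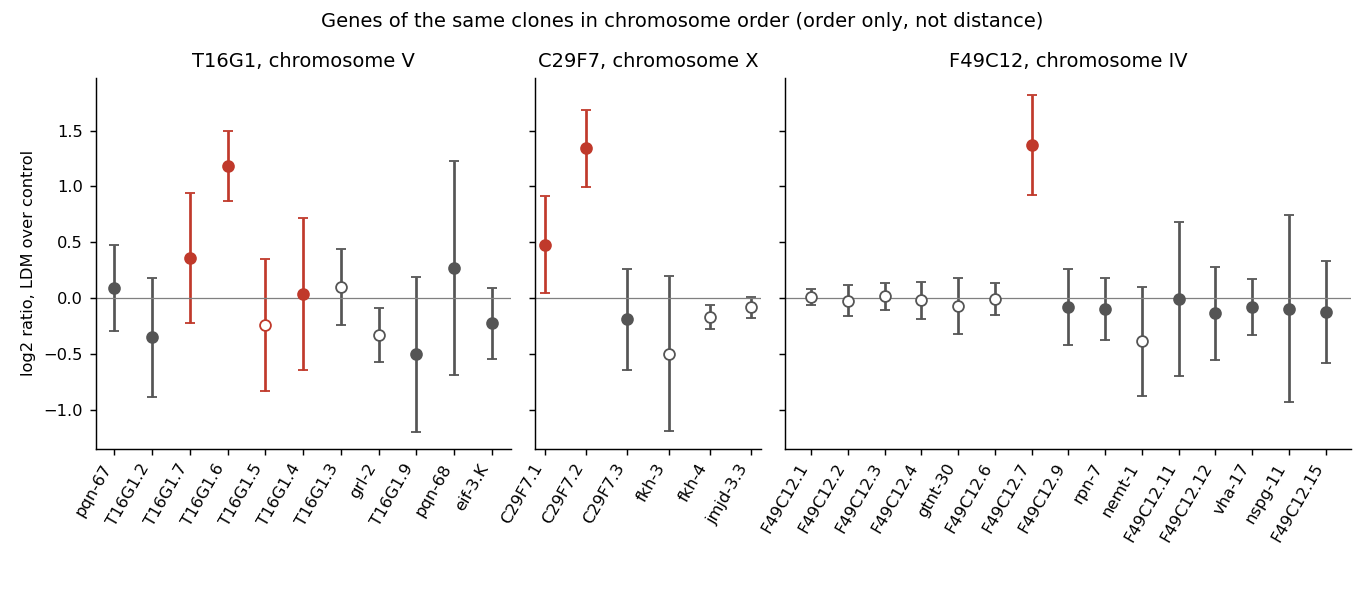
Mean log2 ratio of LDM over control, with the SD over 6 arrays, of the genes of the clones T16G1, C29F7 and F49C12 in chromosome order and without distances; the 7 genes of the set are red, other genes grey, and open circles had fewer than 4 unmarked spots, so that their small spread can reflect spots at background. T16G1.6, C29F7.2 and F49C12.7 stand above every other gene drawn in their panels.

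Genes with a like pattern were sought among the 6490 others measured on all arrays, by the Euclidean distance between 6 log2 ratios. The gene nearest to T16G1.6 was cyp-34A10, a cytochrome P450 gene, at a distance of 0.43. Its ratios were 1.46, 1.05 and 1.5 with LDM in Cy5 and 0.56, 1.06 and 0.91 with LDM in Cy3. The second nearest was C29F7.2, from another chromosome, at 0.49, followed by irg-4, an infection response gene, at 0.66. T16G1.6 was in turn the nearest gene to C29F7.2, followed by irg-4 at 0.62 and C29F3.7 at 0.66. T16G1.7 was in place 314 for T16G1.6, and C29F7.1 in place 95 for C29F7.2, nearer than most of the 6490 genes. In the other direction, T16G1.6 was in place 5134 for T16G1.7 and C29F7.2 in place 4970 for C29F7.1, farther than most genes. The places therefore do not show that these neighbours were alike. These distances include the difference in mean ratio, on which the genes were chosen.

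F49C12.7 was nearest to F55G11.3 at a distance of 0.69 and to mbug-1 at 0.70, and then to C29F7.2 at 1.03. mbug-1 had its lowest ratio, 0.37, on LDM in Cy3 replicate 3, the array with the lowest ratio of F49C12.7, and F55G11.3 had its lowest there as well, 0.83. Both genes were picked for nearness over ratios that include this array, so that a low value there is part of the choice. The nearest genes to C29F7.1 were spg-7, which codes for a mitochondrial protease, clec-41, of the C-type lectin domain genes, and F55G11.7, at 0.45 to 0.53. Those of T16G1.7 were F48G7.12, F36H12.3 and irg-7, at 0.46 to 0.62, and none of these 6 genes passed limma. Distance over 6 arrays ranks both size and pattern, and says nothing of shared control.

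By fitted ratio, F49C12.7, C29F7.2 and T16G1.6 took places 25, 26 and 33 from the top among the 7989 genes tested. C29F7.1, T16G1.7 and T16G1.4 took places 269, 492 and 6268. For comparison, the cytochrome P450 genes cyp-35A3 and cyp-35A4 had log2 ratios of 3.16 ± 0.40 and 2.85 ± 0.57 (SD, n = 6 each), with ranges of 2.76 to 3.71 and 1.91 to 3.46 that lie above every ratio of the 7 genes.

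The arrays differed in quality. The image software left between 37.6 and 41.9% of gene spots unmarked where LDM was in Cy5, and between 56.5 and 61.4% where it was in Cy3. The ratios of replicates 2 and 3 of LDM in Cy5 were negatively correlated, with r = -0.35 over probes unmarked on both and -0.23 over the whole gene set of probes, which do not count as replicates. Each array's direction is that of its labelled dyes. On both, T16G1.6, C29F7.2 and F49C12.7 were above control, whereas C29F7.1, T16G1.4, T16G1.5 and the brighter probe of T16G1.7 changed sign between them. The genes were chosen on ratios that include these arrays, so that nothing further is read from these signs. All 9 intestinal genes on a marker list were above background in every control sample, their median ratio was 0.09, and limma and the rank product each called 0, with 0 at an unadjusted p under 0.05.

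The limma calls depended on which array was left out. Without LDM in Cy5 replicate 1, LDM in Cy3 replicate 1 or LDM in Cy3 replicate 2, 0 of the members passed limma, and without LDM in Cy3 replicate 3 only F49C12.7 did, with between 5 and 7 of all genes higher. Without LDM in Cy5 replicate 2 or LDM in Cy5 replicate 3 the 3 members passed, with 43 and 25 of all genes higher. Over these leave-outs the fitted ratios stayed between 1.12 and 1.28 for T16G1.6, 1.28 and 1.42 for C29F7.2, and 1.28 and 1.53 for F49C12.7.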

How the data were processed

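LDM and control RNA shared each of 6 arrays, 3 per dye orientation. The authors deposited, for every spot, the mean foreground and median background intensity in Cy3 and Cy5 and the percentage of saturated pixels. Their series table, as deposited, holds log2 ratios normalized in limma (version not given in the sources used here); its direction, LDM over control, was found by comparison with the intensities (r of 0.974 to 0.991), and its column medians were -0.00791 to -0.000467.

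Ratios were recomputed from the intensities with limma 3.58.1 in R 4.3.3: normexp with an offset of 50, loess within arrays fitted on unmarked gene spots, and Aquantile between arrays. Loess and Aquantile follow the methods; normexp and the handling of marked spots do not come from them. Marked spots, which lie at low intensity, took their ratio from a loess fitted on all gene spots. Each ratio was turned to LDM over control. Testing a probe needed at least 2 unmarked arrays per orientation, and a gene was represented by the brightest such probe (7989 genes), in a model with LDM and dye effects. The rank product was rewritten after the methods with 100 permutations. Scripts were tested on simulated data. The normexp offset pulls dim ratios towards 0. The methods call the arrays independent biological replicates. A limma p-value sets the fitted ratio against the spread between these arrays left after the dye effect, and takes the arrays as independent.

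Symbols, chromosomes and gene order came from the RefSeq gene table of WBcel235 (21382 of 22490 gene probes matched). Named genes were the members, their neighbours, the 3 genes nearest to each member in ratio, cyp-35A3 and cyp-35A4; T16G1.9, pqn-68, T16G1.2, eif-3.K, rpn-7, vha-17, C29F7.3, F49C12.6 and F49C12.9 were singled out after their values were seen. Members and lists were chosen with earlier results of these data known. Alternatives were other background corrections and normalizations, the series table, marked spots kept, dim spots left out, no dye term, a replicate block, array weights, mean of probes, the day of image analysis and each array left out. Sequences were not used here, so that comparisons of protein family and promoters were not run.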

Additional observations from a re-analysis of the deposited data

Results flagged for a closer look

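Of 8 probes looked at, 1 had an array far from the others: the log2 ratio of F49C12.7 on LDM in Cy3 replicate 3 was 0.50, and its gap to the next array took up 0.692 of the range of the 6 ratios; Dixon's critical value for 6 samples is lower. Chance alone flags about 1 in 20 such groups. On the same array the vitellogenin median was the highest of all arrays (2.44), and its part in the ratio was not tested.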

How the results depend on the processing

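All 125 recomputed ratios stayed within 1 SD between arrays of the value reported, a wide yardstick from which little can be read. Leaving out a single array can hardly move a mean that far. For members measured on all arrays, dropping the dye term or adding the replicate block leaves the ratio unchanged by construction. T16G1.5, which could not be fitted, has no ratio under the 6 settings that change only the model or the tested spots. Nor has T16G1.4 without replicate 1 or 2 of LDM in Cy5. T16G1.6, C29F7.2 and F49C12.7 each passed limma as higher in 14 of 19 alternatives. The number of members that passed, 3, fell to 0 with a term for the day of image analysis, which by construction leaves out LDM in Cy3 replicate 1, and lay between 0 and 3 when single arrays were left out. With ratios scaled between arrays F49C12.7 did not pass, and with array weights C29F7.1 did, with ratios of 1.58 and 0.56. Over all genes, 25 were higher with the LDM: 574 with array weights, 6 with the day term, 101 by rank product, and 5 to 43 without single arrays. Of lower genes there were 5: 3 with print-tip loess, 10 with scaled ratios, 3 with marked spots kept, 834 with array weights, 1 with the day term, 38 by rank product, and 0 to 16 without single arrays. Genes with a dye effect were 2: 0 with the series table, with marked spots kept or with the day term, 1 with the replicate block, 878 with array weights, and 0 to 2 without single arrays. The causes were not tested. No neighbour gene passed as higher under any of these settings.

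Between arrays with the same replicate number, the deviations had r of -0.03, 0.41 and 0.23 for replicates 1, 2 and 3, so that those of replicate 1 did not deviate together. For arrays with different numbers r was -0.41 to 0.03, so that the values of replicates 2 and 3 were the highest. Whether these share samples across the dyes was not tested. The arrays were left unpaired, and if samples were shared, SDs and p-values treat them as more independent than they are. With the replicate block 26 genes were higher and 4 lower, and 3 members passed. The T16G1.4 ratio, -0.19, was -0.05 with the block and 0.02 with marked spots kept. For dim genes such as T16G1.5, signal close to background on part of the arrays limits the ratio. Comparisons of protein family, planned by sequence, were not run.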
